A study of Rattus norvegicus with 2 samples.

Results

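Vegfc, the receptors and related ligands of the vascular endothelial growth factor (VEGF) family, the endothelial receptor Tie1 and the coagulation factor gene F5 were described in 2 populations of rat natural killer (NK) cells. The set holds 9 genes, Vegfc, Vegfa, Vegfb, Kdr, Flt1, Flt4, Nrp1, F5 and Tie1, of 14217 genes that the array annotation names singly. All 14 probe sets annotated with 1 of these symbols were taken. The set was selected on the signal difference of Vegfc and F5 between the arrays, so their values are a description and no test is attached to them.

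The cells came from spleens of PVG.7b rats aged 8 to 12 weeks, and 9 rats were used in all. NK cells were enriched by depleting cells that carried CD5, CD45RA, CD68, the alpha-beta T cell receptor or the immunoglobulin kappa chain. Both sorted groups were CD3-negative and NKR-P1A-positive. NKR-P1B+ cells carried the inhibitory receptor NKR-P1B without Ly49s3, and Ly49s3+ cells carried the activating receptor Ly49s3 without NKR-P1B, each at a purity above 90%. Each population was hybridised to 1 expression array, so there are no replicates, no p-value was computed, and each difference describes these 2 arrays. Whether each array held RNA pooled from several rats is not stated in the labels.

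VEGF ligands are secreted dimers that bind receptor tyrosine kinases on endothelial cells. VEGF-C, the product of Vegfc, acts mainly through the receptor encoded by Flt4 on lymphatic endothelium and, after proteolytic trimming, also through the one encoded by Kdr, while neuropilins serve as co-receptors. Human NK cells of the uterine lining are known to secrete VEGF-C. Factor V, the product of F5, is the cofactor with which activated factor X converts prothrombin to thrombin, and it is made chiefly by the liver and carried by platelets.

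Signals are in arbitrary units and had medians of 19.6 in NKR-P1B+ cells and 21.3 in Ly49s3+ cells. A floor of 20.4, the median of all signals of both arrays pooled, was used, and a gene was called measured where at least 1 array was above it. That held for 9114 of the 14217 genes (64.1%). Signals that did not exceed the floor were replaced by it in ratios, which makes those ratios bounds, written as "at least". The difference is the log2 signal in NKR-P1B+ cells minus that in Ly49s3+ cells. Over the measured genes its median was −0.02 and its SD 0.42. Rescaling by the poly-A spikes, control RNAs added before labelling, moved that median to 0.50, so each direction below is relative to the deposited scale. The 17 spike probe sets used were uneven, with log2 differences from −0.97 to 0.21 and a median of −0.53. In all, 162 genes were at least 2-fold higher and 110 at least 2-fold lower in NKR-P1B+ cells on the deposited scale, against 648 and 31 after scaling to the spikes. Actin control probe sets at the 3' end were 11.9 times as bright as those at the 5' end in NKR-P1B+ cells, and 13.2 times in Ly49s3+ cells. All 11 NK cell markers with a probe set were above the floor on both arrays, with lowest and highest signals of 272 (Klrg1) and 4024 (Prf1) in NKR-P1B+ cells and of 241 (Klrg1) and 3813 (Klrb1a) in Ly49s3+ cells. Their median log2 difference was 0.23. Faslg, which encodes Fas ligand, was 2.99-fold higher in NKR-P1B+ cells (1304 against 436.5). Gzmb, which encodes granzyme B, was 1.56-fold higher there (3973 against 2549). The other 9 were within 1.5-fold on their brightest probe sets. Among these, Eomes was 1.47-fold lower in NKR-P1B+ cells on that probe set and 1.65-fold lower on another (402 against 663.5).

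Of the 9 genes, 3 were above the floor on both arrays (Vegfc, F5 and Tie1), 1 in NKR-P1B+ cells only (Kdr), and 5 in neither (Vegfa, Vegfb, Flt1, Flt4 and Nrp1). Vegfc and F5 had lower signals in NKR-P1B+ cells, and Kdr and Tie1 had lower signals in Ly49s3+ cells. Among the 4 measured genes, 2 were at least 2-fold lower in NKR-P1B+ cells, where 1.21% of all measured genes were, and 1 was at least 2-fold higher there, where 1.78% of all measured genes were. Since the genes were chosen with these differences known, nothing is read from those counts.

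**Figure D1:**
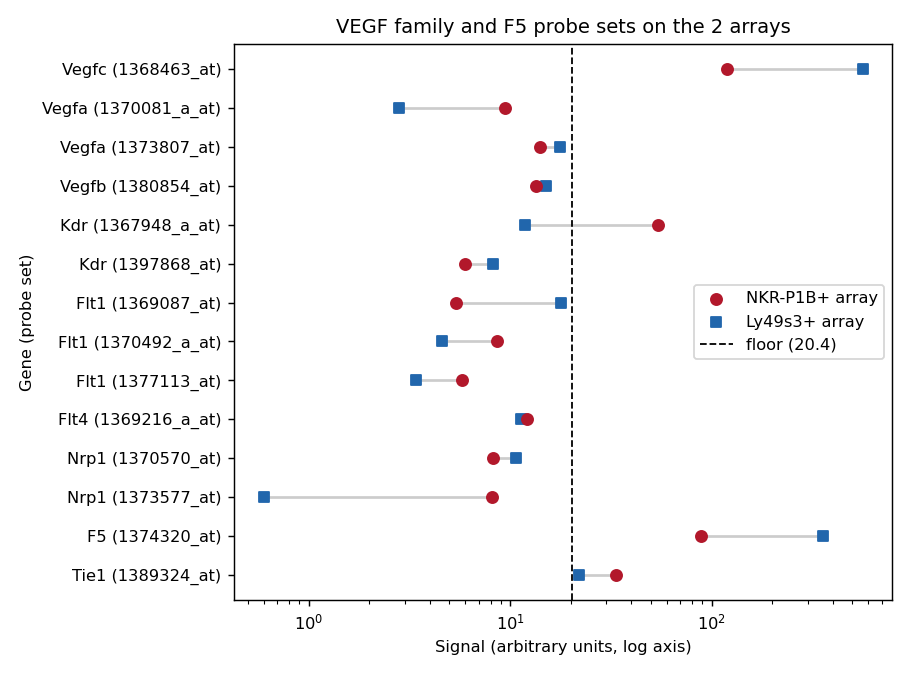
Signal of each of the 14 probe sets (log axis, arbitrary units) in NKR-P1B+ cells (red circles) and in Ly49s3+ cells (blue squares), with 1 array per population and the floor of 20.4 as a dashed line. Vegfc and F5 lie right of the floor on both arrays, at 119.7 and 88.6 in NKR-P1B+ cells and at 561 and 358 in Ly49s3+ cells, and 10 probe sets lie left of it on both.

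Among the ligands, Vegfc (probe set 1368463_at) had a signal of 119.7 in NKR-P1B+ cells and 561 in Ly49s3+ cells. It was 4.69-fold lower in NKR-P1B+ cells, a log2 difference of −2.23, and clear of the floor on both arrays. The SD of the log2 difference of a single probe set was estimated from the disagreement between probe sets of the same gene. At mean signals between 160 and 320 it was 0.23, taken over 482 genes. The SD of the disagreement itself is larger. Since such probe sets share the RNA, the sort and the array, the SD holds no variation between rats or sorts. Vegfc has a single probe set, so no second one can be set beside it. Counted from the most negative difference, Vegfc was number 8 of the 9114 measured genes. In sorted cell populations, fewer cells that carry a transcript and less of it per cell cannot be told apart.

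Vegfa, whose product is the main driver of blood vessel growth, had 14.1 in NKR-P1B+ cells and 17.7 in Ly49s3+ cells on its brighter probe set (1373807_at). Its other probe set (1370081_a_at) had 9.4 in NKR-P1B+ cells and 2.8 in Ly49s3+ cells. Vegfb, which encodes a ligand of the Flt1 product, had 13.5 in NKR-P1B+ cells and 15.1 in Ly49s3+ cells. All 3 probe sets stayed under the floor in both populations, and so did those of Vegfd and Pgf, the remaining ligand genes of the family. Of 5 VEGF ligand genes on the array, Vegfc was thus the only one measured. Vegfd, the closest relative of Vegfc in the family, had 9.5 in NKR-P1B+ cells and 12.0 in Ly49s3+ cells.

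Signals of the receptor genes were low. Kdr, which encodes the main signalling receptor of VEGF-A, had 54.1 in NKR-P1B+ cells and 11.8 in Ly49s3+ cells on probe set 1367948_a_at, which makes it at least 2.65-fold higher in NKR-P1B+ cells. Its other probe set (1397868_at) had 6.0 in NKR-P1B+ cells and 8.2 in Ly49s3+ cells, below the floor on both, so the difference rests on 1 of 2 probe sets. Raising the floor to the 65th percentile made the bound for Kdr 1.02-fold, and with log2 of the signal plus 32 in place of a floor its log2 difference was 0.98, just under 2-fold.

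Flt4, which encodes the principal VEGF-C receptor, had 12.1 in NKR-P1B+ cells and 11.3 in Ly49s3+ cells. Flt1, whose product binds VEGF-A, VEGF-B and placental growth factor, had 3 probe sets, with signals from 5.4 to 8.6 in NKR-P1B+ cells and from 3.4 to 18.0 in Ly49s3+ cells. The co-receptor gene Nrp1 had 8.2 in NKR-P1B+ cells and 10.7 in Ly49s3+ cells on one probe set, and 8.1 in NKR-P1B+ cells and 0.6 in Ly49s3+ cells on the other. None of these probe sets exceeded the floor on either array, so no order between the arrays is drawn for them. Nrp2, the other neuropilin gene and no member of the set, had 22.8 in NKR-P1B+ cells and 4.3 in Ly49s3+ cells. That makes it at least 1.12-fold higher in NKR-P1B+ cells, on the only probe set of 2 above the floor.

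Tie1, an orphan receptor that modulates angiopoietin signalling through the Tek product, had 33.5 in NKR-P1B+ cells and 22.0 in Ly49s3+ cells, 1.52-fold higher in NKR-P1B+ cells. Both signals lay near the floor. At mean signals between 20 and 40, the SD of a single probe set, estimated as for Vegfc, was 0.39 in log2. The log2 difference of Tie1 was 0.61. With the floor at the 65th percentile Tie1 was measured on neither array. Tek had 8.4 in NKR-P1B+ cells and 5.0 in Ly49s3+ cells, and the ligand genes Angpt1 and Angpt2 were at or below 1.3 on both arrays. Angpt4 had 24.7 in NKR-P1B+ cells and 21.2 in Ly49s3+ cells.

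F5 (probe set 1374320_at) had 88.6 in NKR-P1B+ cells and 358 in Ly49s3+ cells. It was 4.04-fold lower in NKR-P1B+ cells, a log2 difference of −2.01. Its mean signal lay in the same range as that of Vegfc, with the same estimated SD of 0.23 per probe set. It was number 10 of 9114 by difference toward the Ly49s3+ array. F5 too has a single probe set, and both arrays were clear of the floor.

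**Figure D2:**
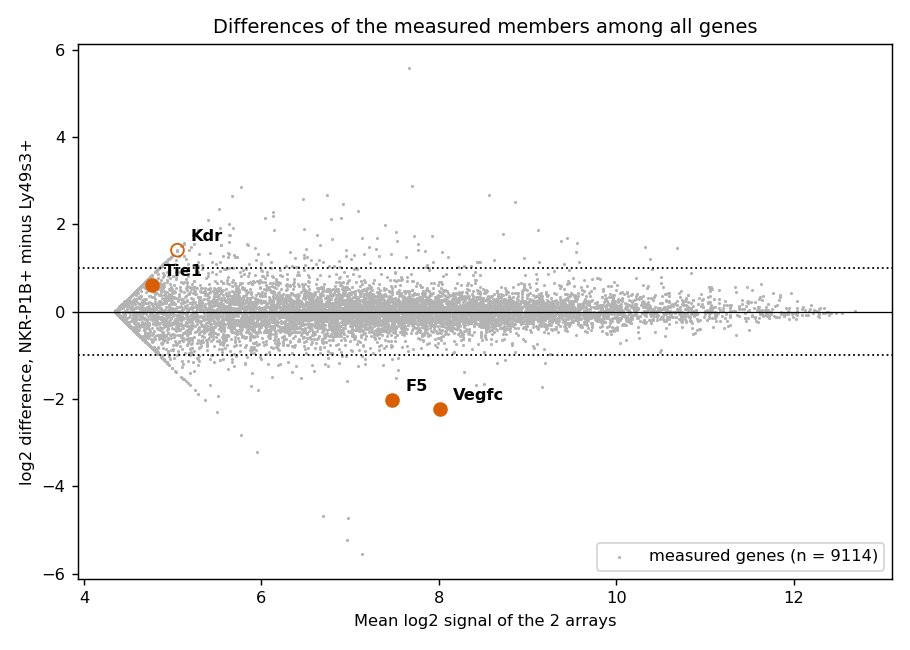
Log2 difference (NKR-P1B+ minus Ly49s3+) against mean log2 signal of the 2 arrays for the 9114 measured genes (grey), with the measured members in orange (open circle, a bound) and dotted lines at 2-fold. Vegfc at −2.23 and F5 at −2.01 lie below the lower dotted line, Kdr lies above the upper one on the edge that the floor makes, and Tie1 lies between the lines.

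These differences were recomputed under other settings. Other floors, no filter and other choices of probe set leave Vegfc and F5 as they are by construction, since each has 1 probe set clear of every floor. Under the 5 settings that can change them, Vegfc was between 3.24-fold and 4.68-fold lower in NKR-P1B+ cells, and F5 between 2.80-fold and 4.04-fold. The smallest difference of each came from scaling to the poly-A spikes.

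**Figure D3:**
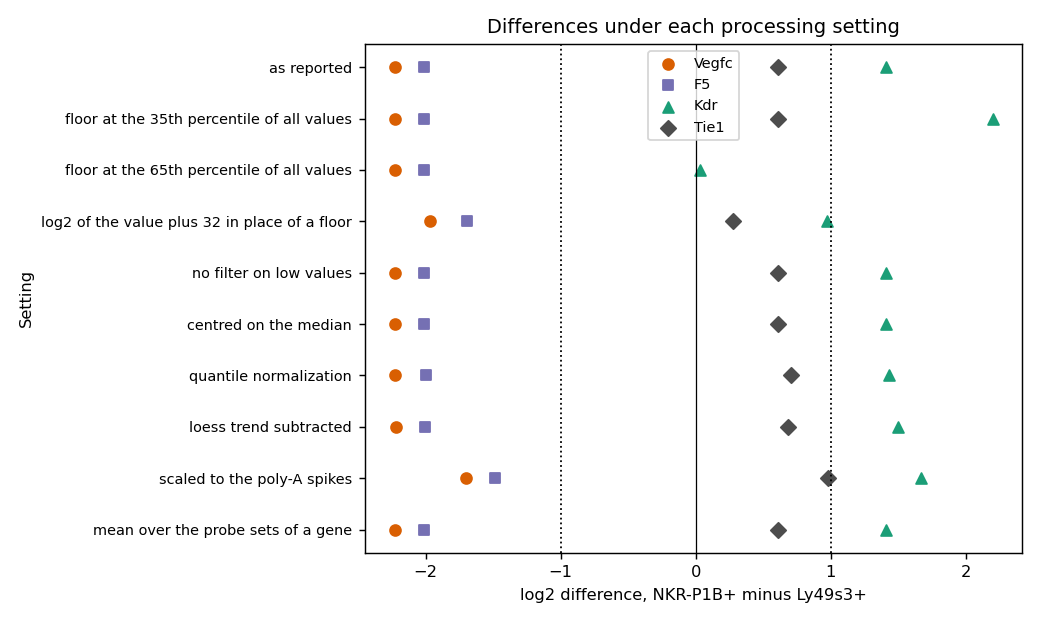
Log2 difference (NKR-P1B+ minus Ly49s3+) of the 4 measured members as reported and under each other setting except the second brightest probe set, with dotted lines at 2-fold. Vegfc stays between −2.23 and −1.70 and F5 between −2.01 and −1.48, left of the lower dotted line, whereas Kdr spreads from 0.04 to 2.20 and Tie1 from 0.28 to 0.98.

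The start-site windows of Vegfc and F5 are shown because these genes had the large differences of the set and can be compared in composition. Each window runs from 250 bases before to 50 bases after the annotated start, 5′ to 3′ on the gene's strand, and was taken from RefSeq (GRCr8). All 9 genes had such a window. Capitals mark matches to any of the motifs listed after the sequences. The Vegfc window is chr16:44560838-44561137 on the minus strand and the F5 window is chr13:79046407-79046706 on the plus strand.
Vegfc: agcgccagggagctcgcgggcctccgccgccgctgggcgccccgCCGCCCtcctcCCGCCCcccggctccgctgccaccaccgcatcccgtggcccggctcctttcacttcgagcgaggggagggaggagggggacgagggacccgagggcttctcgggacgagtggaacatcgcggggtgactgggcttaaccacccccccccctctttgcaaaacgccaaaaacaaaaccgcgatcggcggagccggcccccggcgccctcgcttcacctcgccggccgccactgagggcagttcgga
F5: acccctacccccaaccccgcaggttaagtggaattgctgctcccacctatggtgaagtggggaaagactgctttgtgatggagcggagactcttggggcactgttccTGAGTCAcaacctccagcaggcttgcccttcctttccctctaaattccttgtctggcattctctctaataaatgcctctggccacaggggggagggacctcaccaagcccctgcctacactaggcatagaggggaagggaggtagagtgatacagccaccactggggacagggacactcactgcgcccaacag

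The windows differ in base composition. That of Vegfc had a GC content of 73.0% and 36 CG dinucleotides, more than 94.6% of the 33469 windows of the same length in the RefSeq table. That of F5 had a GC content of 56.7% and 3 CG dinucleotides, more than 22.3% of the windows, and the medians over all windows were 51.7% and 7. The motifs searched on both strands were the GC box GGGCGG, the TATA box TATAAA, the CCAAT box CCAAT, the AP-1 motif TGACTCA, the RUNX motif TGTGGT, the T-box motif AGGTGTGA and the hypoxia response core ACGTG. None of the matches overlapped another. The Vegfc window held 2 matches to the GC box, which 33.1% of all windows hold at least once. The F5 window held 1 match to the AP-1 motif, which 4.63% of all windows hold. Neither window held the other motifs, of which the TATA box occurs in 14.2% of all windows, the CCAAT box in 37.5%, the RUNX motif in 17.3%, the T-box motif in 1.10% and the hypoxia response core in 19.3%. These matches describe the letters of the windows only.

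The genes nearest to Vegfc and F5 in signal were found by the distance in log2 signal over the 2 arrays, among the 8235 named genes whose signal exceeded the floor in both populations. The gene closest to F5 was Trat1, which encodes an adaptor that associates with the T cell receptor, at a distance of 0.062. Trat1 had 86.2 in NKR-P1B+ cells and 346 in Ly49s3+ cells. Comtd1, Osbpl7, Tbc1d4 and Psat1 followed at distances from 0.35 to 0.66 and were between 2.11-fold and 2.87-fold lower in NKR-P1B+ cells. For Tbc1d4, which encodes a regulator of vesicle traffic, the log2 difference was −1.21 on that probe set and −0.12 on another. Vegfc had no such close neighbour in signal. Slc25a4, the mitochondrial carrier of ADP and ATP, came nearest at a distance of 0.68, with 190.6 in NKR-P1B+ cells and 610.5 in Ly49s3+ cells. Sfxn1, a mitochondrial serine transporter, F5 itself, the small GTPase gene Rasl11b and Trat1 followed at distances from 0.71 to 0.84. With 2 arrays this likeness means only a like pair of signals.

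Neighbours on the chromosome were also examined, a comparison chosen after the values of Vegfc and F5 were seen. Of the 4 protein-coding genes on each side of F5 in RefSeq, 7 of 8 had a single-symbol probe set. Slc19a2, the thiamine transporter gene next to F5, had 200 in NKR-P1B+ cells and 196 in Ly49s3+ cells. The selectin gene Selp, next to it on the other side, had 8.2 in NKR-P1B+ cells and 23.3 in Ly49s3+ cells, and Sele had 4.9 in NKR-P1B+ cells and 0.5 in Ly49s3+ cells. Neither selectin gene was above the floor in NKR-P1B+ cells. Selp exceeded the floor in Ly49s3+ cells on 1 of 2 probe sets, a bound of at least 1.14-fold lower in NKR-P1B+ cells. Ccdc181 had 12.7 in NKR-P1B+ cells and 25.4 in Ly49s3+ cells, at least 1.25-fold lower in NKR-P1B+ cells. Blzf1 had 31.5 in NKR-P1B+ cells and 39.1 in Ly49s3+ cells on its brighter probe set, 1.24-fold lower in NKR-P1B+ cells. Nme7 had 84.8 in NKR-P1B+ cells and 87.6 in Ly49s3+ cells. Of the 8 neighbours of Vegfc, 4 had such a probe set. Aga, the lysosomal aspartylglucosaminidase gene, had 494.9 in NKR-P1B+ cells and 506 in Ly49s3+ cells. The signal peptidase subunit gene Spcs3 had 2630 in NKR-P1B+ cells and 3035 in Ly49s3+ cells, and Asb5 and Tenm3 were below the floor on both. Of the neighbours above the floor in both populations, Mettl18 was the furthest apart, 1.31-fold higher in NKR-P1B+ cells (36.2 against 27.6).

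Related genes were examined in 14 lists, of which 120 genes other than the 9 had a probe set and 63 were measured, 48 of them above the floor on both arrays. Of the 63, 5 were at least 1.5-fold higher in NKR-P1B+ cells (7.94%, against 5.11% of all measured genes) and 2 were at least 1.5-fold lower there (3.17%, against 5.73%). Another 42 were above the floor on both arrays and within 1.5-fold, and the remaining 14 were above it on 1 array, with a bound under 1.5-fold that leaves their ratio open. The median log2 difference of the 63, bounds included, was 0.08, beside −0.02 over all measured genes.

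**Figure D4:**
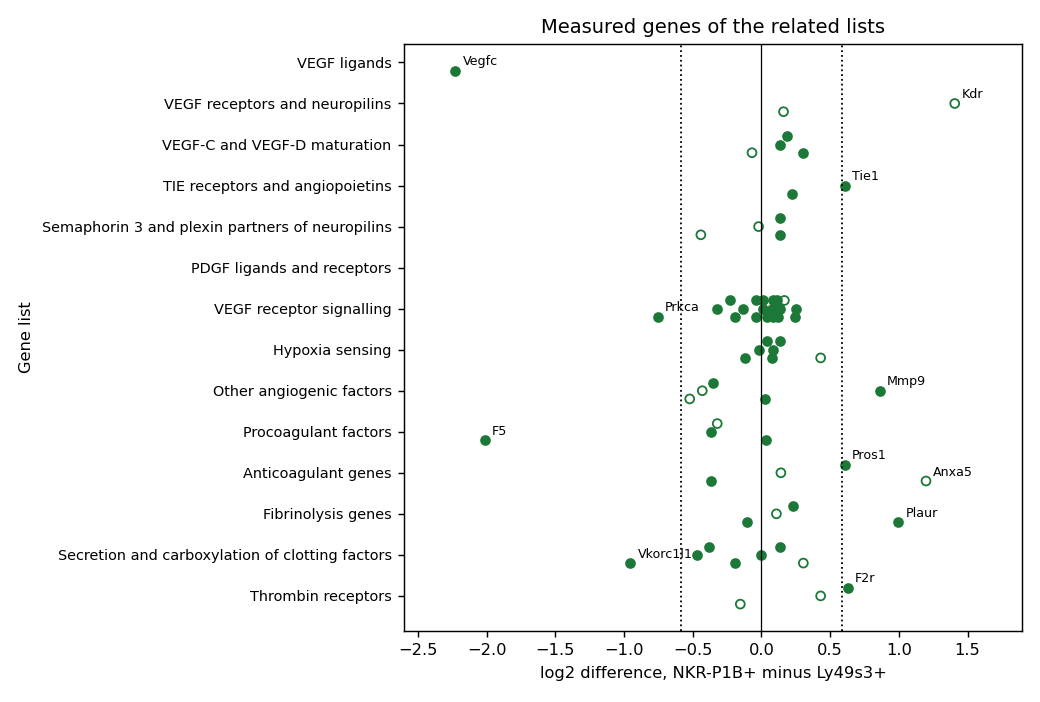
Log2 difference (NKR-P1B+ minus Ly49s3+) of each measured gene of the 14 related lists, the members included, with open circles for bounds, dotted lines at 1.5-fold and small vertical offsets for legibility. Vegfc and F5 stand apart on the left at −2.23 and −2.01, and Kdr, Anxa5, Plaur, Mmp9, F2r, Tie1 and Pros1 lie right of the upper line.

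Genes whose products trim VEGF-C and VEGF-D into their mature forms were measured in 4 of the 6 cases with a probe set. The 3 above the floor on both arrays were within 1.5-fold. Adamts3 and Adamts14, also on this list of 8, had no single-symbol probe set. The proprotein convertase gene Furin had 84.4 in NKR-P1B+ cells and 68.3 in Ly49s3+ cells. Pcsk7, another convertase, had 118.0 in NKR-P1B+ cells and 107.5 in Ly49s3+ cells, and the protease gene Ctsd had 267.5 in NKR-P1B+ cells and 236 in Ly49s3+ cells. Ccbe1, whose product assists the cleavage of VEGF-C, had 14.8 in NKR-P1B+ cells and 21.4 in Ly49s3+ cells, which gives only a bound, at least 1.05-fold lower in NKR-P1B+ cells. The list median was 0.16.

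Of 24 genes that act downstream of VEGF receptors, 20 were measured, with a median of 0.06. Many of them serve other receptors of lymphocytes as well. Sh2d2a, an adaptor that binds the Kdr product and is also used in T cells, had 1379 in NKR-P1B+ cells and 1157 in Ly49s3+ cells. The phospholipase gene Plcg2 had 375 in NKR-P1B+ cells and 353 in Ly49s3+ cells. Its relative Plcg1 had 10.5 in NKR-P1B+ cells and 20.1 in Ly49s3+ cells, below the floor on both. The brightest genes, Cdc42 and Prkcb, were within 1.03-fold on their brightest probe sets. Another probe set of Prkcb was 1.41-fold higher in NKR-P1B+ cells (176.7 against 125). Another of Cdc42 was 1.43-fold lower there (79.8 against 114), and the remaining probe sets of both genes were within 1.08-fold. Prkca, a protein kinase C gene, was 1.69-fold lower in NKR-P1B+ cells, at 43.5 against 73.5 in Ly49s3+ cells, while 18 of the 20 were above the floor on both arrays and within 1.5-fold. Src, a tyrosine kinase gene, had 22.9 in NKR-P1B+ cells and 11.8 in Ly49s3+ cells, at least 1.12-fold higher in NKR-P1B+ cells. That bound rests on 1 of 4 probe sets, since the others of Src did not exceed the floor on either array. Prkca was within 1.5-fold with the higher floor (1.39-fold), with the added 32 (1.40-fold) and after scaling to the poly-A spikes (1.17-fold).

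Of 9 genes of oxygen sensing and of transcription factors that act on VEGF genes, 7 were measured, with a median of 0.08, and the 6 above the floor on both arrays were within 1.5-fold. Egln3, which encodes an oxygen-dependent prolyl hydroxylase, had 27.5 in NKR-P1B+ cells and 19.8 in Ly49s3+ cells, at least 1.35-fold higher in NKR-P1B+ cells. Hif1a, which encodes the oxygen-regulated subunit of the hypoxia-inducible factor, had 1046 in NKR-P1B+ cells and 1057 in Ly49s3+ cells. Vhl, whose product marks that subunit for degradation, had 396 in NKR-P1B+ cells and 374.5 in Ly49s3+ cells, and Ets1 had 3314 in NKR-P1B+ cells and 3225 in Ly49s3+ cells. Semaphorin and plexin partners of neuropilins were measured in 4 of 12 cases. Sema3g had 112.4 in NKR-P1B+ cells and 102.4 in Ly49s3+ cells, and Plxna3 had 37.0 in NKR-P1B+ cells and 33.7 in Ly49s3+ cells, both within 1.5-fold. Plxna1 and Sema3f were above the floor in Ly49s3+ cells only, with bounds of at least 1.36-fold and 1.01-fold lower in NKR-P1B+ cells. These rest on 1 of 3 and 1 of 2 probe sets. None of 5 genes of the related platelet-derived growth factor family was measured.

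Other angiogenic factors and matrix proteases were measured in 5 of 15 cases. Mmp9, a gelatinase gene, was 1.82-fold higher in NKR-P1B+ cells, at 176 against 97.0 in Ly49s3+ cells, and on its other probe set it had 54.1 against 18.2, at least 2.65-fold higher there. The ribonuclease gene Ang had 82.7 in NKR-P1B+ cells and 81.2 in Ly49s3+ cells. Areg, which encodes amphiregulin, had 23.4 in NKR-P1B+ cells and 29.9 in Ly49s3+ cells. The list median was −0.35, set by genes near the floor.

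Among procoagulant factor genes, 4 of 12 were measured. Besides F5 these were F8, Vwf and F12. F8, which encodes the homologous cofactor of activated factor IX, had 63.9 in NKR-P1B+ cells and 62.3 in Ly49s3+ cells. Vwf, whose product carries factor VIII, had 23.9 in NKR-P1B+ cells and 30.9 in Ly49s3+ cells. F12 had 2.8 in NKR-P1B+ cells and 25.5 in Ly49s3+ cells, at least 1.25-fold lower in NKR-P1B+ cells. The genes of prothrombin (F2), tissue factor (F3) and factor X (F10) had signals from 5.6 to 7.0 in NKR-P1B+ cells and from 1.0 to 4.0 in Ly49s3+ cells, below the floor on both, as were all 3 fibrinogen chain genes. F8 and Vwf, the other genes of this list above the floor on both arrays, were within 1.5-fold.

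Factor V leaves the endoplasmic reticulum with the help of a cargo receptor made of the Lman1 and Mcfd2 products. Mcfd2 had 404 in NKR-P1B+ cells and 367 in Ly49s3+ cells, and Lman1 had 25.8 in NKR-P1B+ cells and 33.6 in Ly49s3+ cells. In this list of 7 genes of secretion and carboxylation, all measured, Vkorc1l1, which encodes a vitamin K epoxide reductase, was 1.94-fold lower in NKR-P1B+ cells, at 26.1 against 50.6 in Ly49s3+ cells. That difference was 1.42-fold with the added 32 and 1.34-fold after scaling to the spikes, and with the higher floor the gene was not measured. Pdia3, a disulfide isomerase gene and the brightest of the list, had 829 in NKR-P1B+ cells and 947 in Ly49s3+ cells. Vkorc1, the relative of Vkorc1l1, had 99.0 in NKR-P1B+ cells and 99.2 in Ly49s3+ cells.

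Of the anticoagulant genes, 4 of 10 were measured, and 2 were at least 1.5-fold higher in NKR-P1B+ cells. Of all measured genes 5.11% were, and with 4 genes nothing is read from that count. Anxa5, whose product covers procoagulant phospholipid, was at least 2.29-fold higher, at 46.8 in NKR-P1B+ cells against 17.2 in Ly49s3+ cells. Pros1, which encodes protein S, the cofactor of activated protein C in the inactivation of factor V, was 1.52-fold higher, at 48.7 in NKR-P1B+ cells against 32 in Ly49s3+ cells. With the floor at the 65th percentile neither was measured, and with the added 32 Pros1 was 1.26-fold apart. Tfpi, the inhibitor of the tissue factor pathway, had 32.8 in NKR-P1B+ cells and 42.4 in Ly49s3+ cells.

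In the fibrinolysis list 4 of 10 genes were measured. Plaur, which encodes the urokinase receptor, was 1.99-fold higher in NKR-P1B+ cells, at 72.2 against 36.2 in Ly49s3+ cells, and 1.37-fold higher with the higher floor. Its other probe set was below the floor on both arrays. Anxa2 and S100a10, whose products form a plasminogen receptor, had 2252 and 1670 in NKR-P1B+ cells and 2418 and 1422 in Ly49s3+ cells. Of 4 thrombin receptor genes 3 were measured, and F2r, which encodes the principal thrombin receptor, was 1.54-fold higher in NKR-P1B+ cells, at 865 against 560 in Ly49s3+ cells. Like Mmp9, F2r stayed at least 1.5-fold higher there under all of the settings tried that give a value for it. Other floors, no filter and the probe set mean leave F2r as it is by construction. With the added 32, quantile normalization and loess it was from 1.51-fold to 1.53-fold higher, and after scaling to the spikes 2.23-fold. F2rl2 had 27.5 in NKR-P1B+ cells and 1.5 in Ly49s3+ cells, at least 1.35-fold higher in NKR-P1B+ cells.

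Markers of cell types that are known sources of these transcripts were set beside the values of Vegfc and F5. Of 18 blood endothelial markers with a probe set, 4 were measured, and their signals ranged from 0.2 to 34.2 in NKR-P1B+ cells and from 0.5 to 30.9 in Ly49s3+ cells. The summed signal of the list was 138.8 in NKR-P1B+ cells and 151.9 in Ly49s3+ cells. Pecam1 had 15.1 in NKR-P1B+ cells and 4.0 in Ly49s3+ cells, below the floor on both. Of the measured markers, Esam was at least 1.68-fold higher in NKR-P1B+ cells (34.2 against 14.6). The others were lower there, with Vwf at 23.9 against 30.9, Egfl7 at 4.9 against 21.9 and Mmrn2 at 10.4 against 21.8. Egfl7 and Mmrn2 were above the floor in Ly49s3+ cells only, and the list median was −0.10. Of 8 lymphatic endothelial markers 1 was measured (Stab1, 26.6 in NKR-P1B+ cells and 25.5 in Ly49s3+ cells), with sums of 71.0 and 78.4 in the same order, and Prox1 and Lyve1 were under the floor in both populations.

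Of 12 platelet and megakaryocyte markers 4 were measured, with a summed signal of 142 in NKR-P1B+ cells and 169.5 in Ly49s3+ cells. Gp5, Gp9 and Clec1b had 3.0, 4.3 and 2.9 in NKR-P1B+ cells and 2.9, 3.8 and 6.2 in Ly49s3+ cells. Itga2b had 20.2 in NKR-P1B+ cells, just under the floor, and 3.6 in Ly49s3+ cells. None of these was measured. Among the measured markers, Pf4 had 30.9 in NKR-P1B+ cells and 26.6 in Ly49s3+ cells. Treml1 (15.9 against 30.4), Selp (8.2 against 23.3) and Vwf (23.9 against 30.9) were lower in NKR-P1B+ cells, as Vegfc and F5 were. Treml1 and Selp exceeded the floor in Ly49s3+ cells only, and the list median was −0.28. Of 6 liver markers 1 was measured (Hp, 30.4 in NKR-P1B+ cells and 41.2 in Ly49s3+ cells). Among macrophage markers 2 of 11 were measured, and Lyz2 was 2.68-fold higher in NKR-P1B+ cells (356 against 133.0), opposite to Vegfc and F5, while Cybb had 38.6 in NKR-P1B+ cells and 29.4 in Ly49s3+ cells. Of 9 stroma markers Acta2 alone was measured, at 33.5 in NKR-P1B+ cells and 49.8 in Ly49s3+ cells.

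Markers at least 1.5-fold lower in NKR-P1B+ cells, as Vegfc and F5 were, included Hemgn among 5 erythroid markers (50.6 in NKR-P1B+ cells and 131 in Ly49s3+ cells) and Cd3g among 7 B and T cell markers (22.3 in NKR-P1B+ cells and 42.9 in Ly49s3+ cells). In the same lists Hbb (276 in NKR-P1B+ cells and 153 in Ly49s3+ cells) and Cd5 (92.7 in NKR-P1B+ cells and 40.8 in Ly49s3+ cells) moved the other way. The summed signals were 355.5 in NKR-P1B+ cells and 309 in Ly49s3+ cells for the erythroid list, and 144.6 in NKR-P1B+ cells and 155.6 in Ly49s3+ cells for the B and T cell list. Some markers were above the floor in Ly49s3+ cells only and carry bounds under 1.5-fold, such as the platelet gene Treml1 (15.9 in NKR-P1B+ cells and 30.4 in Ly49s3+ cells). Of 8 neutrophil and mast cell markers 1 was measured, Cpa3, at 10 in NKR-P1B+ cells and 21.0 in Ly49s3+ cells. No marker was at exactly 0 on either array. The part of other cells in the Vegfc and F5 signals was not tested.

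**Figure D5:**
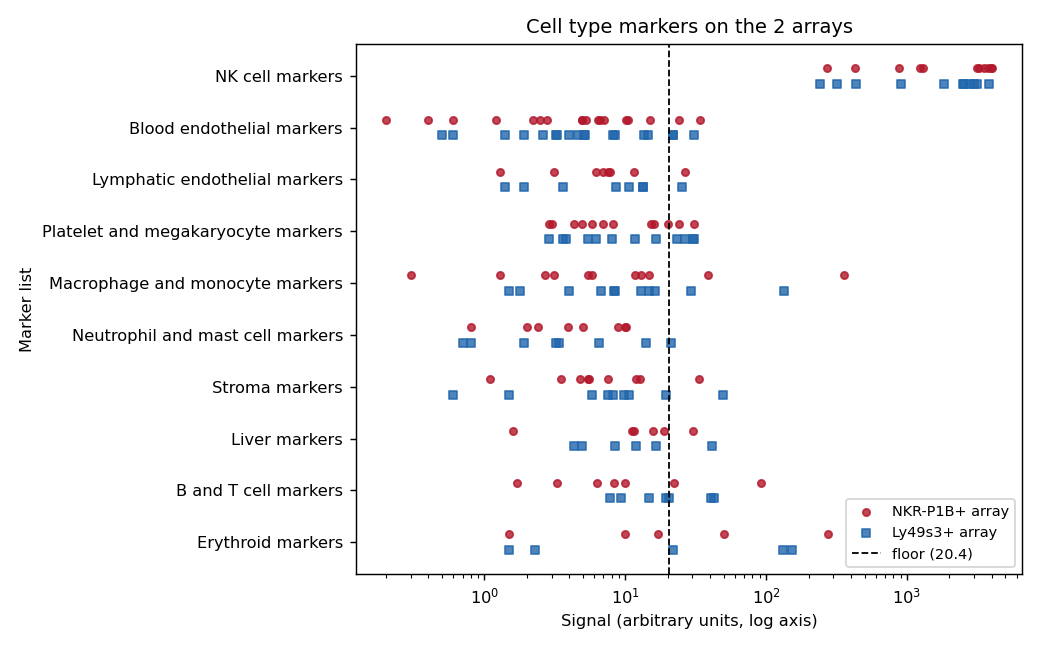
Signal (log axis, arbitrary units) of each marker gene with a probe set, by marker list, in NKR-P1B+ cells (red circles) and in Ly49s3+ cells (blue squares), 1 array each, with the floor of 20.4 dashed. NK cell markers lie above the floor, and blood endothelial markers reach at most 34.2 and 30.9 on these arrays.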

How the data were processed

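Total RNA of each sorted population (3 ug) was labelled with biotin and hybridised to 1 Affymetrix rat array, per the labels. The deposited values are linear intensity values, 1 per probe set and array, made by the authors with MAS5, according to the labels (the submitters' processing notes name it). Neither its version nor a scaling target or detection calls were found in the sources used here. Both arrays had a trimmed mean of 100.04 (2% cut from each end), so they share a scale, and genes were not centred.

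Probe set names came from the platform annotation, and gene numbers matched to RefSeq (GRCr8) for 20758 of 20826 single-symbol probe sets changed 0 symbols. Log2 was taken after flooring at 20.4, the 50th percentile of non-control signals. The brightest probe set by mean log2 signal stood for its gene. The calculation was tested on simulated data and used Python 3.11.15, numpy 2.4.6, pandas 2.3.3 and statsmodels 0.14.6. With 1 array per population no test was possible, and precision is limited by the number of arrays. The members and the gene lists were chosen with earlier results of these data known. Genes were named by rule: every member, list genes at least 1.5-fold apart (up to 4 per direction), the 2 brightest of each list, measured genes of lists of 12 or fewer, and the 5 genes nearest in signal to Vegfc and F5. Other genes named were chosen after their values were seen. The other settings were different floors, log2 of the value plus 32, no filter, median centring, quantile normalization, loess (span 0.3), poly-A spikes and other probe sets per gene.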

Additional observations from a re-analysis of the deposited data

How the results depend on the processing

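Vegfc and F5 kept their direction under the 5 alternatives that can change them (the added 32, median centring, quantile normalization, loess and the spikes), at log2 differences from −2.23 to −1.70 and from −2.01 to −1.48. The other floors, no filter, the probe set mean and the second brightest probe set leave both as they are, since each has 1 probe set and such genes kept it. With log2 of the value plus 32, Vegfc was at −1.97 and F5 at −1.69, and after scaling to the poly-A spikes they were at −1.70 and −1.48, where the median of all measured genes was 0.50. Kdr ranged from 0.04 to 2.20 and Tie1 from 0.28 to 0.98. Wherever the Kdr probe set exceeded the floor in NKR-P1B+ cells only, the sign of its bound was fixed in advance. Its range leaves out the other probe set, which was below the floor on both arrays (6.0 in NKR-P1B+ cells and 8.2 in Ly49s3+ cells). Tie1 gave no value with the floor at the 65th percentile. Members higher in NKR-P1B+ cells by 2-fold or more numbered 0 in place of 1 under the higher floor (65th percentile), under the added 32 and with the second brightest probe set, since Kdr then dropped out.

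Counts over all measured genes moved with the treatment of low signals and with the spikes, and genes higher in NKR-P1B+ cells are counted before those lower there. At 2-fold, 162 and 110 became 274 and 298 under the 35th percentile floor, 86 and 43 under the 65th, 77 and 37 with the added 32, and 648 and 31 after scaling to the spikes. At 1.5-fold, 466 and 522 became 772 and 1097, 277 and 246, 276 and 227, and 3480 and 94 under the same alternatives. Listed genes at least 1.5-fold apart, 5 and 2, became 11 and 11 under the lower floor, 2 and 0 under the higher one, and 25 and 0 after scaling to the spikes. With the added 32 the counts were 6 and 1. The 1 lower gene was F12, at 2.8 in NKR-P1B+ cells and 25.5 in Ly49s3+ cells. Prkca and Vkorc1l1 were 1.40-fold and 1.42-fold lower under that setting. No paired analysis was possible because each population has 1 array. No replicate could be left out for the same reason.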
